A study of Homo sapiens with 2 samples.

Results

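Nuclear copies of mitochondrial DNA genes were taken from the deposited table of HUH7 cells by name. A feature counted as a copy if its symbol began with MTND, MTCO, MTATP, MTCYB or MTRNR, without the hyphen of the mitochondrial symbols, and either ended in P and a number or began with MTRNR2L. The rule used no measured value and gave 24 of the 14914 listed features. By GENCODE v29 on GRCh38, 14 of them are processed pseudogenes, 7 are unprocessed pseudogenes and 3 are protein-coding genes of the MTRNR2L type.

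Fragments of mitochondrial DNA have been pasted into nuclear chromosomes many times during primate evolution. Most are held to be without function, because they lack the mitochondrial promoters and the mitochondrial genetic code differs from the nuclear one. The MTRNR2L genes are copies of the large mitochondrial rRNA gene MT-RNR2 that keep a short reading frame resembling humanin, a peptide known for protecting cultured cells from apoptosis. Since the copies resemble the very abundant mitochondrial transcripts, short reads can fit a copy and the mitochondrial gene alike.

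The IP library (1 library) held RNA recovered with CSTF2 from HUH7, an established human hepatocellular carcinoma line, and the Input library (1 library) held total RNA of the same line. CSTF2 is the subunit of the cleavage stimulation factor that touches the pre-mRNA beside the poly(A) site. Neither library has a stated treatment or genetic change, and each is a single library without replicates. The series asks which RNAs CSTF2 may bind. Read numbers recovered from the deposited values came to 3220045 in IP and 9517885 in Input, so the same share of reads is measured with 2.96 times as many reads in the Input. All 9 hepatocyte and hepatoma markers examined were listed, among them ALB at 200 RPKM in IP and 254 RPKM in Input. They ranged from 1.43 RPKM (TTR) to 353 RPKM (FGB) in the IP and from 4.25 to 311 RPKM in the Input. Of 8 markers of blood, stromal and endothelial cells, 3 were listed (CD68, LYZ and COL1A2), at 0.704 to 3.12 RPKM in the IP and 0.576 to 1.55 RPKM in the Input. The ranges overlap in the IP, where CD68 at 3.12 RPKM lay above TTR. A ratio of IP over Input compares shares of reads, so a gain of a copy in the IP and a loss of other RNA there cannot be told apart.

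The sequences below are those of GENCODE v29 transcripts on GRCh38, written 5′ to 3′ on the strand of the feature. Capitals mark the bases at which a copy and its mitochondrial gene differ. The whole MTATP8P1 (chr1:633535-633741, plus strand) is shown because it had the highest log2 ratio of all copies. It differs from MT-ATP8 (chrM:8366-8572, plus strand) at 5 of 207 bases:
MTATP8P1: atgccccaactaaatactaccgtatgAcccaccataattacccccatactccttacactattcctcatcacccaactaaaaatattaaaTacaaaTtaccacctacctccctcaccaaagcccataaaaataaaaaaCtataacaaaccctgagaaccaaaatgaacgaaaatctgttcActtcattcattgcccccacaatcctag
MT-ATP8: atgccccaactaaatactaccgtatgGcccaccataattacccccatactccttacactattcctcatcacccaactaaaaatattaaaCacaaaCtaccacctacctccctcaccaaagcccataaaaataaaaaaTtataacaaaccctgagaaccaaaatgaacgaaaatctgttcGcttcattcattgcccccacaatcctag

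MTATP6P1 held most of the reads, so the 120 bases in which it departs most from its gene are shown. They lie at chr1:633768-633887 (plus strand), against MT-ATP6 at chrM:8599-8718 (plus strand), and hold 4 differences:
MTATP6P1: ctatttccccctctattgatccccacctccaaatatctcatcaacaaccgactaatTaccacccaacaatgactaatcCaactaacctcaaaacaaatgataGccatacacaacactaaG
MT-ATP6: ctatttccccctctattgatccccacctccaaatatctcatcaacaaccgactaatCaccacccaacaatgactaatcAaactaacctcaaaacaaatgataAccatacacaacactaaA

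MTND6P4 is the best covered copy of the insertion on chromosome 5. Over its whole length MTND6P4 differs from MT-ND6 at 26 of 522 bases. In the 120 bases in which it departs most, at chr5:134924403-134924522 (plus strand), it differs from MT-ND6 at chrM:14274-14393 (minus strand) at 11 bases:
MTND6P4: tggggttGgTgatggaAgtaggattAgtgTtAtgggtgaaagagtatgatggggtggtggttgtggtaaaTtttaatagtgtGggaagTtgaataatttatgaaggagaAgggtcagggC
MT-ND6: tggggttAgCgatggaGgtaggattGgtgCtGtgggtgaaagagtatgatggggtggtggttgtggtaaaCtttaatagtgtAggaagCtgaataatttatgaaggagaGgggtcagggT

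MTCO1P55 stands for the more diverged copies. Its identity to MT-CO1 was 77.4% over all aligned bases. In the 120 bases in which it departs most, at chr7:141801529-141801648 (minus strand), it differs from MT-CO1 at chrM:6314-6433 (plus strand) at 27 bases:
MTCO1P55: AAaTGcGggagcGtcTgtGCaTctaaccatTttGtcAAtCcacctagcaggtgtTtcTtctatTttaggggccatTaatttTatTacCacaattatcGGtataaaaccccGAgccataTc
MT-CO1: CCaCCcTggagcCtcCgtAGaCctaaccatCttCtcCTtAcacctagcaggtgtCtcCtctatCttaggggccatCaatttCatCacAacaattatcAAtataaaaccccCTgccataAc

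The reading frames of the 3 MTRNR2L genes are shown in full because they are the coding part that these copies keep. They lie at chr3:96617199-96617273 (minus strand) for MTRNR2L12, chr11:10508152-10508226 (minus strand) for MTRNR2L8 and chr17:22524062-22524136 (plus strand) for MTRNR2L1. Each frame has 75 bases and differs from MT-RNR2 at chrM:2633-2707 (plus strand) at 2 bases, and capitals in the last line mark every base at which any of the 3 differs:
MTRNR2L12: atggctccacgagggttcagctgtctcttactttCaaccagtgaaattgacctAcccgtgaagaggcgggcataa
MTRNR2L8: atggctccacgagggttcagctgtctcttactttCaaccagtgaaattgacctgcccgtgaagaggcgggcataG
MTRNR2L1: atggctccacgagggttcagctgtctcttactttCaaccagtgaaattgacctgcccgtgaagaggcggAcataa
MT-RNR2: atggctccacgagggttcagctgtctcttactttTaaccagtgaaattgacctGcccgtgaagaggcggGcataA

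Of the 24 copies, 19 had a mean of at least 1 RPKM over both libraries. RPKM is the number of reads per kilobase of gene, scaled to the depth of the library. Among these 19, the log2 ratio of IP over Input, taken as log2((IP + 1)/(Input + 1)) of the RPKM values, reached at least 1 for 11 copies (57.9%), against 9.88% of the 9880 features that met the same minimum. It was at most -1 for 3 copies (15.8%), against 6.83% of all features. Of the 11, MTATP6P2, MTATP8P2, MTND6P22 and MTCO1P55 had so few Input reads (0 to 5) that their IP level alone placed them in the table, so the direction of these 4 was fixed by the listing. MTCO2P12, among the 3 lower copies, had 0 IP reads and was listed through the Input alone, so its direction was fixed as well. Over the 14 copies with at least 20 reads in both libraries together, 8 were past the upper line, against 5.38% of 12100 features, and 3 past the lower line, against 5.12%. Without MTATP8P2, which is among the 14, 7 of 13 were past the upper line. MTRNR2L1, among the 3 past the lower line, had 0 IP reads and was likewise listed through the Input alone. The median was 1.26 for the 19 copies and 0.17 for all features. Other features annotated as pseudogenes (226 past the filter) had a median of 0.52, with 81 (35.8%) past the upper line and 33 (14.6%) past the lower line. Those other pseudogenes rested on a median of 26 reads over both libraries, and the 19 copies on a median of 185. The copies share insertions, mitochondrial genes and possibly reads, so none of these counts treats them as independent.

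The higher copies all derive from mitochondrial mRNA genes, and the lower ones are MTRNR2L12, MTRNR2L8 and MTCO2P12. Those past the upper line were MTATP8P1, MTATP8P2, MTATP6P1, MTATP6P2, MTND1P23, MTND2P28, MTND4P12, MTND5P11, MTND6P4, MTND6P22 and MTCO1P55. Those between the lines were MTCO1P12, MTCO3P12, MTCYBP18, MTND4LP30 and MTND4P24. The 5 copies under the filter were MTCO1P47, MTCYBP28, MTND2P5, MTND5P2 and MTRNR2L1. The table appears to list a feature from about 1 CPM (reads scaled to depth alone) in either library, and its lowest value in the better covered library was 1.05 CPM. A copy with 4 reads in the IP could therefore be listed, whereas the Input needed 10, and 8 copies were listed through the IP alone, with 0 to 5 Input reads. Such copies had to be high in the IP. Directions are therefore read below from the 14 copies with at least 20 reads over both libraries, of which only MTATP8P2, with exactly 20, was listed through the IP alone. In turn, MTCO2P12 and MTRNR2L1, with 0 IP reads, were listed through the Input alone and had to be lower in the IP. Of these, MTRNR2L1 is among the 14.

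**Figure D1:**
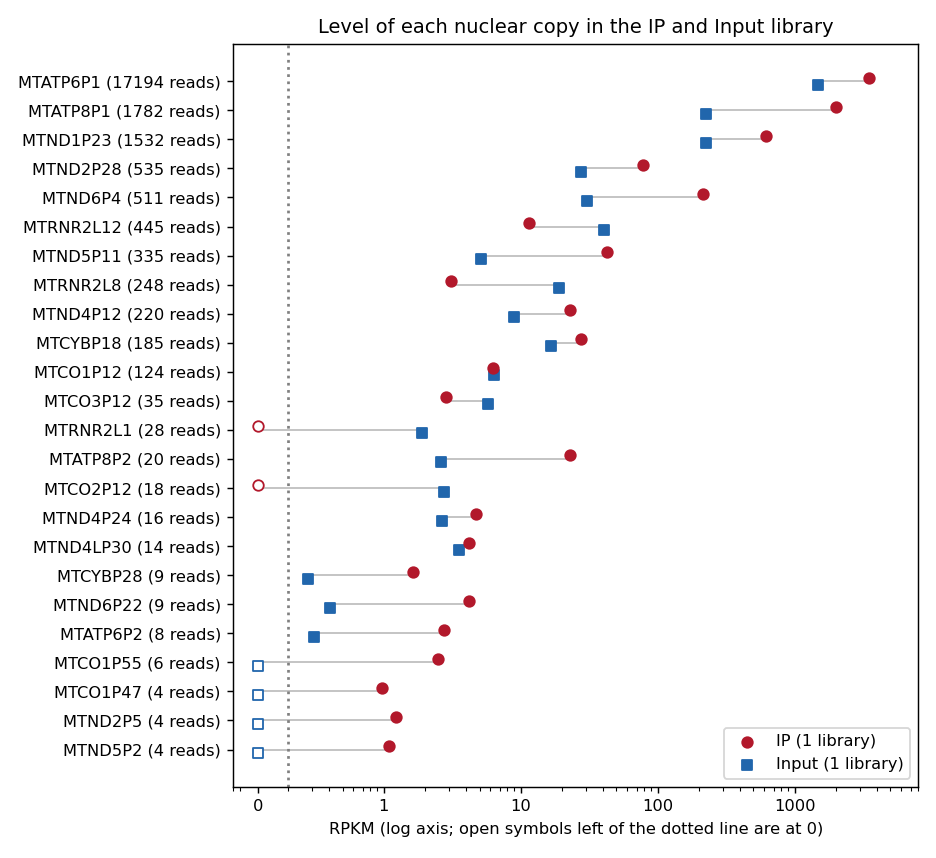
RPKM of each of the 24 copies in the IP library (circles) and the Input library (squares) on a log axis, with the reads over both libraries beside each name and open symbols for 0. MTATP6P1 is highest in both libraries, at 3471 RPKM in IP and 1478 RPKM in Input, and MTRNR2L12 and MTRNR2L8 lie to the left in the IP while most well covered copies lie to the right.

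Summed over all 24, copies took 10871 reads of the IP (0.338%) and 12415 reads of the Input (0.130%), a ratio of 2.59 by share of reads (95% interval 2.52 to 2.66). The intervals are exact conditional (Clopper-Pearson) ones and cover counting error only, and reads copied by PCR and lacking molecular identifiers are not independent molecules. The 21 copies of mRNA genes had 10819 IP reads and 11746 Input reads, a ratio of 2.72 (2.65 to 2.79). The 3 MTRNR2L genes went the other way, with 52 IP reads and 669 Input reads, which is 4.35-fold lower in the IP (3.28 to 5.89). MTRNR2L1, with 0 IP and 28 Input reads, is in this sum, and its direction was fixed by its listing through the Input alone. MTRNR2L12 and MTRNR2L8 by themselves were 3.52-fold and 6.12-fold lower in the IP. The mRNA sum likewise holds the 8 copies listed through the IP alone, and MTCO2P12, listed through the Input alone. The mitochondrial genes themselves split alike, at a ratio of 3.29 for the 13 mRNAs and 1.98-fold lower in the IP for the 2 rRNAs. MTATP6P1 alone held 70.0% of the IP reads and 77.2% of the Input reads of all copies. Without it the ratio of the sum was 3.40 (3.23 to 3.58). Without MTATP6P1 and MTATP8P1 it was 2.37 (2.23 to 2.52).

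The copies of the ATP synthase genes ranged from the most abundant copy, MTATP6P1, to MTATP6P2 with 8 reads over both libraries. MT-ATP6 and MT-ATP8 encode subunits of the membrane part of ATP synthase and overlap by 46 bases, and their copies MTATP6P1 and MTATP8P1 overlap by 46 bases as well. MTATP6P1 (chromosome 1, 633696 to 634376, plus strand, 1 exon, 681 bases) had 3471 RPKM from 7611 IP reads, against 1478 RPKM from 9583 Input reads. Its ratio of 2.35 (2.28 to 2.42) lay below the 2.58 of MT-ATP6, and the copy-to-gene quotient of the ratios was 0.912 (0.884 to 0.939). Within the libraries it had 61.7 reads per 1000 reads of MT-ATP6 in the IP (60.3 to 63.2) and 67.7 in the Input (66.3 to 69.1), so the counting intervals of the libraries do not overlap.

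MTATP8P1 (chromosome 1, 633535 to 633741, plus strand, 1 exon) was the copy with the largest log2 ratio, 3.16. It had 2010 RPKM from 1340 IP reads, against 224 RPKM from 442 Input reads, a ratio of 8.96 (8.04 to 10.001). MT-ATP8 stood at 84661 RPKM in IP and 21544 RPKM in Input, a ratio of 3.93, so the ratio of the copy was 2.28 times that of its gene (2.05 to 2.54). Per 1000 reads of MT-ATP8 the copy had 23.7 reads in the IP (22.5 to 25.1) and 10.4 in the Input (9.46 to 11.4). The neighbouring MTATP6P1, in the same insertion, did not share this excess over the gene. The other copy of MT-ATP8, MTATP8P2 on chromosome 2 (87824942 to 87825143), lies inside RGPD2 on the opposite strand. It had 23.1 RPKM from 15 IP reads, against 2.60 RPKM from 5 Input reads. Its ratio was 8.87 (3.06 to 31.2), of which the direction was fixed by the listing, and its quotient over MT-ATP8 of 2.26 has an interval of 0.780 to 7.94, which holds 1.

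The copies of complex I genes, which encode the core subunits of NADH dehydrogenase in the membrane, were also higher in the IP wherever at least 20 reads were at hand. MTND1P23 (chromosome 1, 629062 to 629433, plus strand) had 612 RPKM from 733 IP reads, against 226 RPKM from 799 Input reads, a ratio of 2.71 (2.45 to 3.001). MT-ND1 had a ratio of 1.66, so the copy was 1.64 times its gene by ratio (1.48 to 1.81). MTND1P23 aligns only to bases 605 to 956 of MT-ND1, 36.8% of the gene, so a part is set here against the whole. With 20.6 reads per 1000 reads of MT-ND1 in the IP (19.1 to 22.1) and 12.6 in the Input (11.7 to 13.5), this was, beside MTATP8P1, the other copy whose quotient lay above 1 by its interval.

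MTND2P28 (chromosome 1, 629640 to 630683, plus strand) showed the opposite relation to its gene. It had 78.2 RPKM from 263 IP reads, against 27.4 RPKM from 272 Input reads, a ratio of 2.86 (2.40 to 3.40). The ratio of MT-ND2 was 5.29, and the quotient was 0.540 (0.454 to 0.643). Per 1000 reads of MT-ND2, the copy had 2.52 reads in the IP (2.22 to 2.84) and 4.66 in the Input (4.12 to 5.25). MTND1P23 and MTND2P28 thus had similar ratios although the ratios of their genes differ.

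MT-ND6 is the mRNA transcribed from the light strand, and MT-ND5 is its neighbour on the opposite strand. Their copies MTND6P4 and MTND5P11 keep this arrangement on chromosome 5, on opposite strands. MTND6P4 (134924123 to 134924644, plus strand) had 214 RPKM from 359 IP reads, against 30.6 RPKM from 152 Input reads, a ratio of 6.98 (5.76 to 8.50). MT-ND6 reached 10.6, so the quotient was 0.659 (0.543 to 0.801). MTND5P11 (134924648 to 134926459, minus strand) had 42.3 RPKM from 247 IP reads, against 5.10 RPKM from 88 Input reads, a ratio of 8.30 (6.48 to 10.7). Its gene MT-ND5 had a ratio of 6.97, and the quotient of 1.19 (0.930 to 1.54) holds 1. The labels do not say that strand was kept, so reads of the strands at this locus cannot be told apart.

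MTND4P12 (chromosome 5, 134926660 to 134928036, minus strand) had 23.0 RPKM from 102 IP reads, against 9.003 RPKM from 118 Input reads, a ratio of 2.56 (1.94 to 3.36). MT-ND4 had 2.14, and the quotient of 1.19 (0.906 to 1.57) holds 1. MTND4LP30 overlaps MTND4P12 by 7 bases, as MT-ND4L overlaps MT-ND4 by 7 bases. It had 4 IP reads and 10 Input reads, a ratio of 1.18 (0.271 to 4.10), beside 1.41 for MT-ND4L. MTND4P24 on chromosome X had 6 IP reads and 10 Input reads, a ratio of 1.77 (0.530 to 5.39).

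Among copies with at least 20 reads, those of cytochrome genes lay closest to 1. MT-CYB encodes cytochrome b of complex III, and MTCYBP18 (chromosome 5, 134923303 to 134924049, minus strand) had 27.4 RPKM from 66 IP reads, against 16.7 RPKM from 119 Input reads. Its ratio was 1.64 (1.19 to 2.23), with 1.91 for MT-CYB and a quotient of 0.860 (0.627 to 1.17). MT-CO1, MT-CO2 and MT-CO3 encode the catalytic core of cytochrome c oxidase and were the only mitochondrial mRNAs with a ratio below 1, at 1.34-fold, 2.19-fold and 1.07-fold lower in the IP.

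MTCO1P12 (chromosome 1, 631074 to 632616, plus strand) had 6.24 RPKM from 31 IP reads, against 6.33 RPKM from 93 Input reads, a ratio of 0.985 (0.634 to 1.49). An antisense microRNA gene, MIR6723, and exons of AL669831.3 lie across it. MTCO3P12 (634376 to 634922, plus strand) had 2.84 RPKM from 5 IP reads, against 5.76 RPKM from 30 Input reads, a ratio of 0.493 (0.149 to 1.28). Both intervals hold 1, so at this depth no difference between the libraries was detectable for these copies. MTCO2P12 (632757 to 633438, plus strand) had 0 IP reads, against 2.77 RPKM from 18 Input reads. Taking 3 reads as the limit that a count of 0 allows, and the Input reads as exact, it was at least 2.03-fold lower in the IP. Its exact interval began at 1.49-fold lower, and its direction was fixed by the listing through the Input alone. At the ratio of MT-CO2, 2.78 IP reads would have been counted. That is under the limit of 3 reads, so a departure of MTCO2P12 from its gene was not detectable.

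The 3 MTRNR2L genes were all lower in the IP. MTRNR2L12 (chromosome 3, 96617188 to 96618236, minus strand) had 11.5 RPKM from 39 IP reads, against 40.7 RPKM from 406 Input reads, 3.52-fold lower in the IP (2.53 to 5.03). MTRNR2L8 (chromosome 11, 10507887 to 10509189, minus strand) had 3.10 RPKM from 13 IP reads, against 18.9 RPKM from 235 Input reads, 6.12-fold lower (3.51 to 11.7). The microRNA gene MIR4485 lies inside it on the same strand. MTRNR2L1 (chromosome 17, 22523111 to 22524663, plus strand) had 0 IP reads, against 1.89 RPKM from 28 Input reads. With the Input reads taken as exact, it was at least 3.16-fold lower by the limit of 3 reads, and its exact interval began at 2.40-fold lower. It was listed through the Input alone, so its direction was fixed by the listing. An antisense gene, AC132825.2, overlaps its exon.

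Their gene, MT-RNR2, stood at 132567 RPKM in IP and 276023 RPKM in Input, 2.08-fold lower in the IP. MTRNR2L12 and MTRNR2L8 were lower still, with quotients of 0.591 (0.414 to 0.822) and 0.340 (0.179 to 0.594). At the ratio of MT-RNR2, MTRNR2L1 would have had 4.55 IP reads. The exact interval of its quotient, 0 to 0.867, lay below 1 by counting error. It had no IP read and was listed through the Input alone, so it is left out of the counts of quotients below. Per 1000 reads of MT-RNR2, MTRNR2L12 had 0.0586 in IP and 0.0991 in Input, and MTRNR2L8 had 0.0195 in IP and 0.0574 in Input. The MTRNR2L genes were thus far rarer beside their gene than MTATP6P1 beside MT-ATP6.

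**Figure D2:**
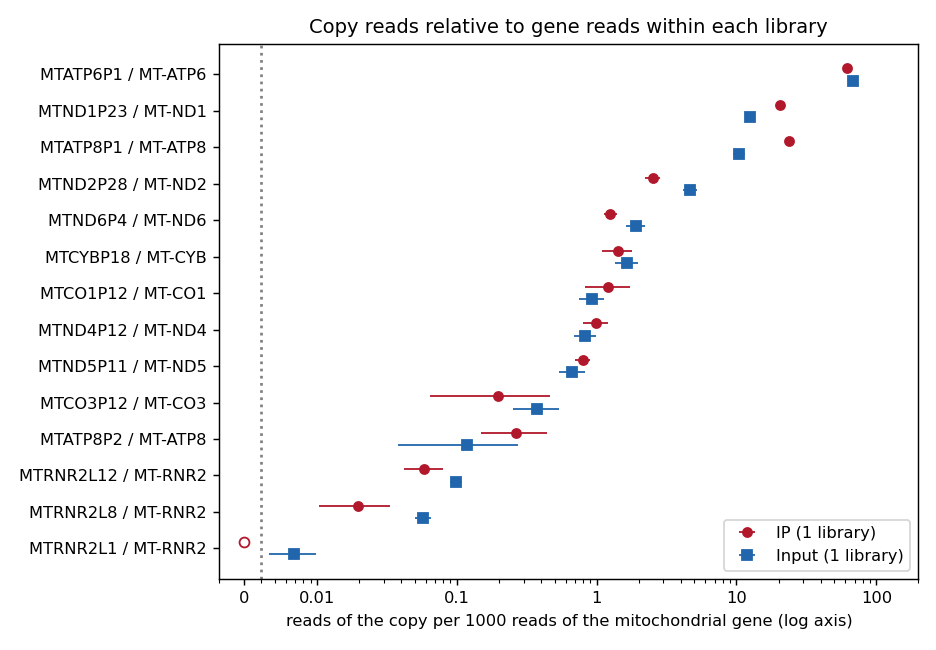
Reads of each of the 14 copies with at least 20 reads, per 1000 reads of its mitochondrial gene, in the IP library (circles) and the Input library (squares) on a log axis, with lines for the exact binomial 95% interval (counting error only) and an open symbol for 0. The IP symbol lies right of the Input symbol by more than the intervals for MTATP8P1 and MTND1P23, at 23.7 against 10.4 and 20.6 against 12.6, and left of it for MTATP6P1, MTND2P28, MTND6P4, MTRNR2L12 and MTRNR2L8.

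Taken over the 14 copies with at least 20 reads, the ratio of a copy lay on the same side of 1 as that of its mitochondrial gene in 14 of 14, and in 13 of 13 without MTATP8P2. MTRNR2L1 is in each of these counts, and its side was fixed because it was listed through the Input alone. The interval of the copy's own ratio lay above 1 for 9 (8 without MTATP8P2), below 1 for 2 and across 1 for 2, and the remaining copy, MTRNR2L1, had no IP read. Across the same 14 the log2 ratios of copy and gene, on the scale with the pseudocount of 1 RPKM, had a Pearson r of 0.93, with 0.915 for Spearman rho, and 0.929 and 0.912 in the same order without MTATP8P2. MTRNR2L1, whose side was fixed, is in each of these coefficients too, and none was computed without it. The points share libraries, insertions, mitochondrial genes and possibly reads, so the coefficients only describe them. The quotient of copy over gene ran from 0.340 for MTRNR2L8 to 2.28 for MTATP8P1 over the 13 copies with IP reads. Its interval lay above 1 for 2 copies and below 1 for 5, which are MTATP6P1, MTND2P28, MTND6P4, MTRNR2L12 and MTRNR2L8. Some copies align to only part of their gene, yet the quotient takes the whole gene. The aligned share of the gene was 36.8% for MTND1P23, 64.9% for MTCYBP18, 67.2% for MTRNR2L12, 69.8% for MTCO3P12 and 83.5% for MTRNR2L8. By the log2 ratio, 11 of the 19 copies past the filter lay below their gene. This count holds copies whose direction the listing fixed, with MTND6P22 and MTCO2P12 among those below. The pseudocount also draws the log2 ratio of low copies towards 0 and hardly moves that of their genes. MTND6P22 differed from MT-ND6 by -1.52 on this scale, although its quotient by reads was 0.976.

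**Figure D3:**
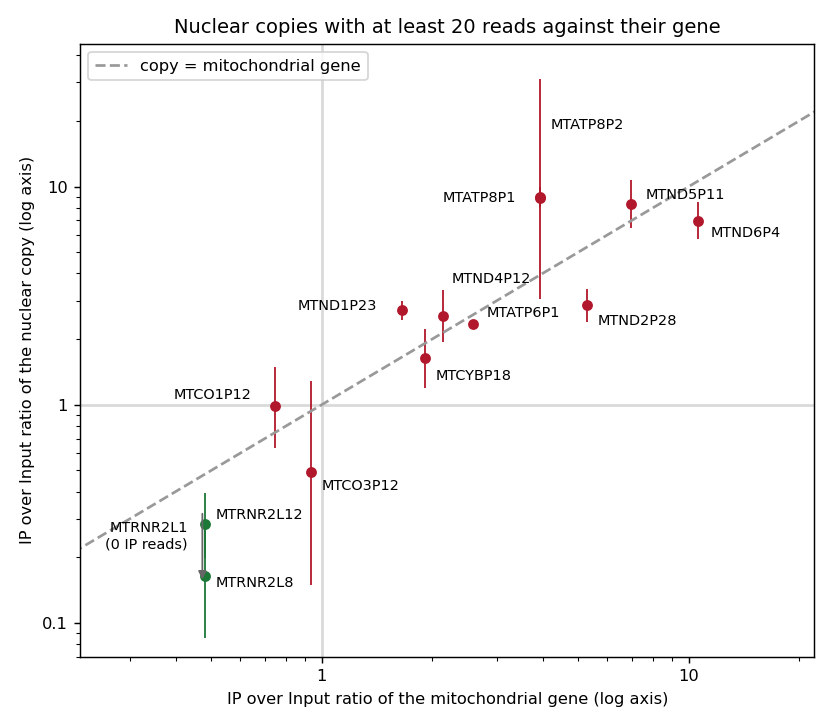
IP over Input ratio of each copy with at least 20 reads (vertical, log axis) against that of its mitochondrial gene (horizontal, log axis), with exact conditional 95% intervals for the copy (counting error only) and MTRNR2L genes in green. The points rise with the ratio of the gene, on either side of the dashed line of equal ratios. By the interval of the copy-to-gene quotient, 2 copies with IP reads lie above the line and 5 below it. MTATP8P1 is furthest above at 2.28 times, and among copies with IP reads MTRNR2L8 is furthest below at 0.340 times. MTATP8P1 and MTATP8P2 share a place, and the arrow for MTRNR2L1 starts at the limit of 3 reads and is drawn just left of its true place.

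The copies lay in 12 places on 11 chromosomes, and the largest insertions held most of the reads. On chromosome 1, 7 copies fill 5861 bases from 629062 to 634922, all on the plus strand and in the order of the mitochondrial genome from MT-ND1 to MT-CO3. Together they had 9983 IP reads and 11237 Input reads, a ratio of 2.63 (2.56 to 2.70). Within this insertion the RPKM of the IP ranged from 0 for MTCO2P12 to 3471 for MTATP6P1, and that of the Input from 2.77 to 1478, so the level was not even along it. The high copies were MTATP6P1, MTATP8P1 and MTND1P23, and the low ones were the 3 copies of cytochrome c oxidase genes.

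On chromosome 5, 5 copies fill 5024 bases from 134923303 to 134928326 within an intron of PCBD2, a gene for a pterin dehydratase that also acts as a transcriptional cofactor. They had 778 IP reads and 487 Input reads, a ratio of 4.72 (4.21 to 5.30). The exons of PCBD2 stood at 0.693 RPKM in IP and 0.571 RPKM in Input, a ratio of 1.21 (0.633 to 2.22). All 5 copies had a higher RPKM than the exons of PCBD2 in each library, and the lowest was MTND4LP30 at 4.18 RPKM in IP and 3.54 RPKM in Input.

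**Figure D4:**
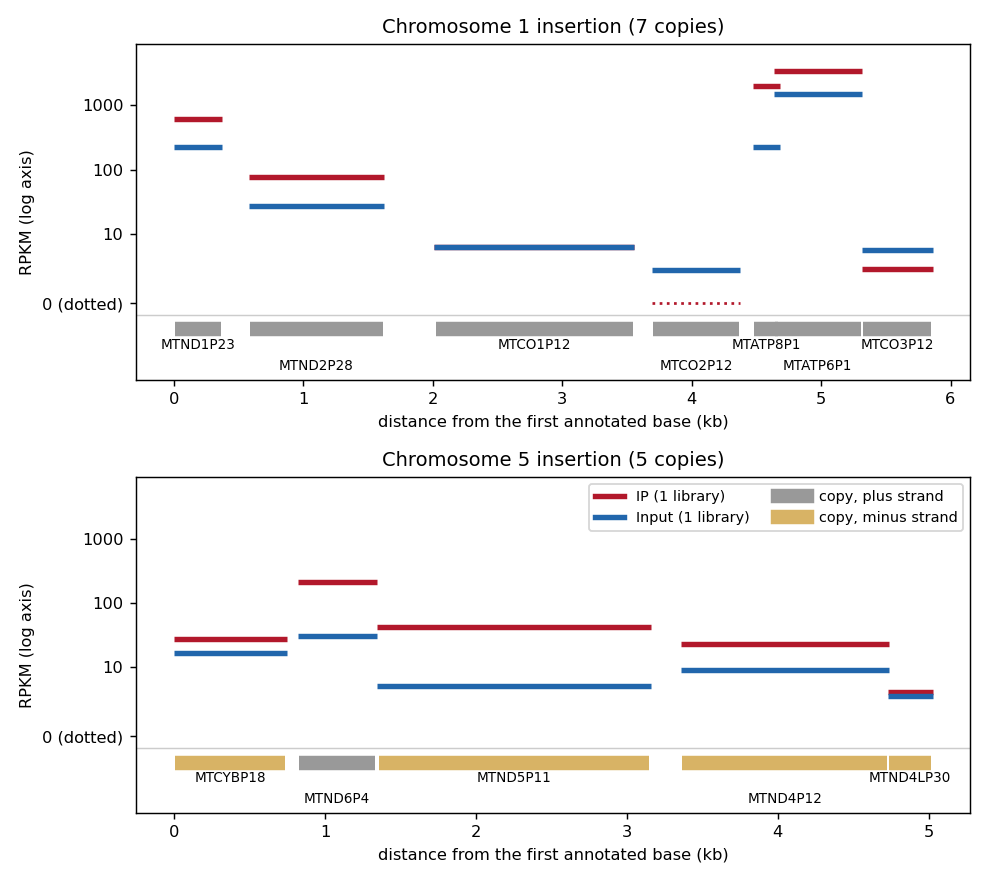
RPKM (log axis) in the IP (red) and Input (blue) library along the copies of the insertions on chromosome 1 and chromosome 5, with distance in kb from the annotated start and boxes for the copies by strand. Levels change between neighbouring copies, from 3471 RPKM in the IP for MTATP6P1 to 2.84 RPKM for MTCO3P12, and the red line lies above the blue one for MTND1P23, MTND2P28, MTATP8P1 and MTATP6P1 and for all 5 copies on chromosome 5.

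Smaller groups of copies had few reads. MTND6P22 and MTATP6P2 on chromosome 5 (100046450 to 100052597) had 13 IP reads and 4 Input reads together. Of these, MTND6P22 had 7 IP reads and 2 Input reads, and MTATP6P2 had 6 IP reads and 2 Input reads. MTCYBP28 on chromosome 16 had 6 IP reads and 3 Input reads. MTCO1P55 on chromosome 7 had 6 IP reads and 0 Input reads. MTND2P5, next to it, MTCO1P47 on chromosome 8 and MTND5P2 on chromosome 13 each had 4 IP reads and 0 Input reads. These 7 copies were listed through the IP alone, so no ratio is read from them. MTND5P2 lies inside DNAJC3 on the same strand, and DNAJC3, a chaperone gene of the endoplasmic reticulum, stood at 3.67 RPKM in IP and 3.04 RPKM in Input. All 10 copies under 20 reads together had 47 IP reads and 45 Input reads.

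The listed copies were on the whole more like the mitochondrial genome than the annotated copies that were not listed. GENCODE v29 holds 407 genes that fit the naming rule, of which 383 were not in the table. By local alignment to the mitochondrial gene, the 24 listed copies had a median identity of 93.9% (76.7% to 99.1%), against 76.8% (65.1% to 98.5%) for the 383 others. Identity counts aligned bases only, without gaps. The alignment covered at least 94.6% of each listed copy, but only a small part of some others. The 98.5% is that of MTRNR2L2, aligned over 74.7% of its 87 bases, and the 65.1% that of MTATP6P30, aligned over 16.0%. The longest run without a difference had a median of 65.5 bases in the listed copies (16 to 266) and 18 bases in the others (5 to 74). At 90% identity or more there were 17 listed copies and 8 others. A stretch of 50 bases identical to some mitochondrial transcript was present in 15 of 24 listed copies and in 6 of the 383 others, and a stretch of 100 bases in 6 and 0.

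Among the listed copies, identity and read number went together only in part. The 5 copies under 80% identity (MTCO1P47, MTCO1P55, MTCYBP28, MTND2P5 and MTND5P2) had 4 to 9 reads over both libraries. The 6 copies at 98% identity or more, all in the insertion on chromosome 1, spanned 18 to 17194 reads. MTCO2P12 at 98.2% had 18 reads, and MTATP6P1 at 98.5% had 17194. MTND2P28 shares 43.5% of its 50-base windows with mitochondrial transcripts and its longest identical run is 266 bases. MTATP8P1 shares 8.23% of them, and its longest identical run is 62 bases. How reads that fit several places were handled, and the read length, are not stated in any source used here. Whether the reads of a copy came from nuclear RNA or from its mitochondrial gene was not tested, and for identical stretches the origins cannot be told apart.

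**Figure D5:**
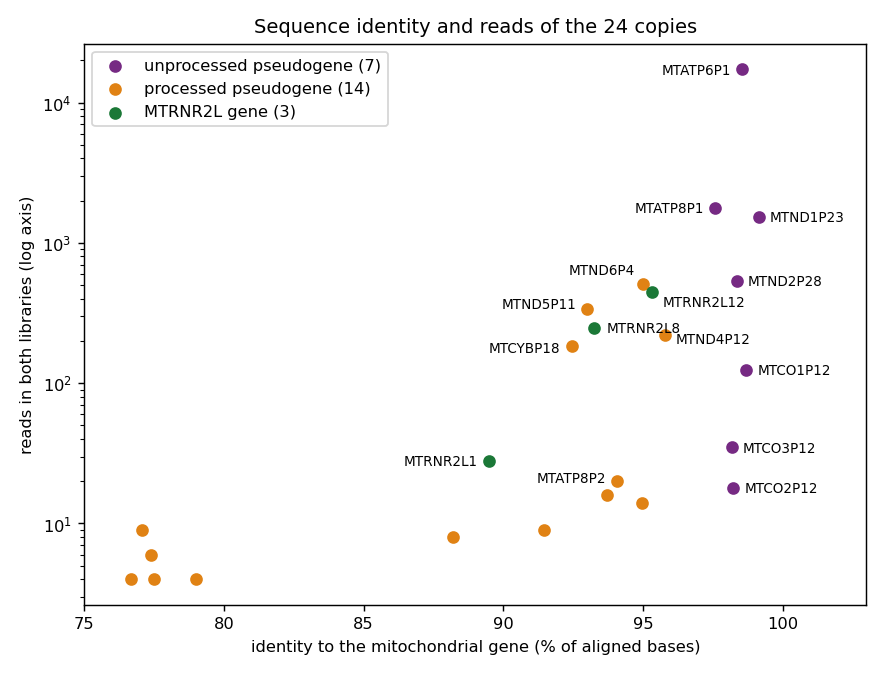
Reads over both libraries (log axis) of the 24 listed copies against their identity to the mitochondrial gene in percent of aligned bases, coloured by annotated type. The 5 copies under 80% identity have 4 to 9 reads, while the 6 copies at 98% or more span 18 to 17194 reads.

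Counted by mitochondrial gene, 13 of the 15 mitochondrial mRNA and rRNA genes had a listed copy. MT-ND3 has 22 annotated copies and none was listed, and no gene of the annotation fits the rule for MT-RNR1. Copies were most frequent beside their gene for MT-ATP6, with 61.8 reads of copies per 1000 reads of the gene in the IP and 67.7 in the Input. MT-ATP8 had 24.01 in IP and 10.5 in Input, and MT-ND1 had 20.6 in IP and 12.6 in Input, so MT-ATP8 came next in the IP and MT-ND1 in the Input. MT-ND2 had 2.56 in IP and 4.66 in Input. The other 9 genes lay between 0 for MT-CO2 and 1.61 for MT-CO1 in the IP, and between 0.163 for MT-RNR2 and 1.93 for MT-ND6 in the Input. The IP value of MT-CO1 includes MTCO1P47 and MTCO1P55, which were listed through the IP alone. MTCO1P12 by itself had 1.22 in the IP, below the 1.54 of MT-CYB, so the place of MT-CO1 rests on those copies. MT-ATP8 has only 2 annotated copies and MT-CO1 has 45, so the share of reads did not follow the number of copies in the annotation.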

How the data were processed

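RNA immunoprecipitation sequencing of HUH7 cells gave 1 IP and 1 Input library. The deposited file is 1 table of RPKM values per library, made by the authors, together with their log2 fold change between IP and Input, per the file headers. FastQC 0.12.0 and hg38 are named in the submitters' processing notes. The aligner, the counting program, the annotation and the handling of reads with several matches are not given in any source used here. Per the labels' protocols, RNA was fragmented, copied from random hexamers and amplified by PCR.

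Whole reads and gene lengths were recovered by solving the deposited RPKM ratio and log2 fold change together, for 14913 of 14914 features, with a tolerance of 0.01 reads. In simulated data 99.97% of features were recovered exactly and 0 wrongly. The recovered lengths of all 24 copies equalled their exons in GENCODE v29. Depth was 3220045 IP reads and 9517885 Input reads. Libraries were compared by log2((IP + 1)/(Input + 1)) of RPKM, with a pseudocount of 1 RPKM that understates low features, a filter at a mean of 1 RPKM and lines at 2-fold. With 1 library per group no test was made and no p-value is given. Ratios have exact conditional (Clopper-Pearson) 95% intervals, shares exact binomial ones, and 0 reads a limit of 3 reads per library.

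Copies were aligned locally to their gene with Biopython 1.88 (match 2, mismatch -3, gap opening -5, gap extension -2). Other tools were Python 3.11.15, numpy 2.4.6, scipy 1.17.1 and matplotlib 3.10.9. Every copy was named, and full values were given from 20 reads. Copies were placed in 1 insertion when less than 10 kb apart. The members, marker lists and alternatives were chosen with earlier results of these data known.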

Additional observations from a re-analysis of the deposited data

How the results depend on the processing

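Of the 19 copies with a mean of at least 1 RPKM, 11 lay 2-fold higher in the IP and 3 lower. With a pseudocount of 5 RPKM 7 copies lay higher, against 1.88% of all features. With a 4-fold line 4 lay higher, against 1.53%, and 1 lower, against 1.51%. In the other settings tried, with 12 to 24 copies, 8 to 15 lay higher and 2 to 4 lower, while 5.38% to 26.0% of all features lay higher and 4.88% to 15.0% lower. The median log2 ratio of 1.26 became 1.34 with a pseudocount of 0.1 RPKM and 0.59 with 5 RPKM. It became 1.11 without the filter (24 copies), 1.35 with a filter of 5 RPKM (12 copies), 1.25 with at least 20 reads (14 copies) and 1.09 centred on all features. With library sizes that leave out the mitochondrial genes it was 1.48 (24 copies). There each IP over Input ratio changed by a factor of 1.006 only. The RPKM values were larger in that setting, so the pseudocount weighed less and all 24 copies passed the filter. Copies below their gene numbered 6 of 12, in place of 11 of 19, with the filter of 5 RPKM, as fewer copies were counted, and 14 of 19 with a pseudocount of 5 RPKM. Each of these sets holds copies whose direction the listing fixed. The ratio of summed reads was 3.40 without MTATP6P1 and 2.72 without the MTRNR2L genes, in place of 2.59.

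Without the best covered copy of each gene, reads of copies per 1000 reads of MT-ND2 were 0.0383 in the IP and 0 in the Input. They were 0.0581 in the IP and 0.0702 in the Input for MT-ND4, 0.0129 and 0 in the same order for MT-ND5, 0.0244 and 0.0250 for MT-ND6, and 0.392 and 0 for MT-CO1. They were 0.0487 in the IP and 0.0141 in the Input for MT-ATP6, 0.266 and 0.118 for MT-ATP8, 0.128 and 0.0414 for MT-CYB, and 0.0195 and 0.0642 for MT-RNR2. The order of IP and Input turned for MT-ND2, MT-ND4, MT-ATP6 and MT-CYB, where 1 copy was left with 0 to 10 reads per library. All copies left for MT-ND2, MT-ND5, MT-ND6, MT-CO1, MT-ATP6, MT-ATP8 and MT-CYB were listed through the IP alone. No order of IP and Input is therefore read from them. MTRNR2L1, left for MT-RNR2 beside MTRNR2L8, was listed through the Input alone. The values without MTATP8P2 were chosen after seeing the data.

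No paired analysis was possible because each group has 1 library. Depth limits the 10 copies under 20 reads most, whose ratios have wide intervals. Single libraries give no replicate check, no mock immunoprecipitation was used here, and reads that fit a copy and its gene alike cannot be assigned.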
